A study of Mus musculus with 6 samples.

Results

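The subunits of the mitochondrial oxidative phosphorylation machinery were followed in the livers of nude mice that had received vesicles of a colorectal cancer line and in livers of mice that had received buffer. Members were taken by name from the gene annotation printed with each array spot: gene names for the Nduf subunits, Sdha to Sdhd, the Uqcr names, the Cox4 to Cox8 names and the Atp5 names. This gave 84 gene names on 129 probes, of 37074 gene names on 56605 probes. Of the 84, 80 were measured, and all 80 were well above background on all 6 arrays. The other 4, Cox6a2, Cox7b2, Cox8b and Cox8c, were complex IV isoforms that were well above background on 1 array at most.

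Both groups were nude mice, which have no thymus and so no mature T cells. sEV mice received small extracellular vesicles, membrane particles released by cells, isolated from the human colorectal cancer line SW620, at 20 µg per tail vein injection in 10 injections over 21 days. Control mice received PBS on that schedule. Each group had 5 mice, of which 3 livers per group were arrayed, 1 liver per 1-colour Agilent array, and the sEV animals were picked at random. Age and sex were not given in the sources used here. The whole organ was measured, so that fewer cells of a type and less RNA per cell cannot be told apart.

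Oxidative phosphorylation passes electrons from NADH and succinate through complexes I to IV to oxygen, pumps protons across the inner mitochondrial membrane, and lets ATP synthase use the returning protons to make ATP. Most subunits are encoded in the nucleus and imported, while a small core is encoded in mitochondrial DNA, and the nuclear genes are known targets of the regulators NRF1, GABP, YY1 and the estrogen related receptors. Hepatocytes are rich in mitochondria and draw on this machinery for gluconeogenesis and urea synthesis. Several complex IV subunits come in alternative isoforms that are best known from heart, muscle, testis or hypoxic tissue.

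With 1 exception, no nuclear subunit taken by name from complexes I to IV or ATP synthase passed the test between sEV and Control livers. Among subunits encoded in mitochondrial DNA, which are counted apart from the members, ND1 was called higher. Of the 80 measured members, 0 were called higher and 1, Cox6b2, was called lower in sEV livers by limma at a Benjamini-Hochberg adjusted p under 0.05 over all 19446 genes tested. At an unadjusted p under 0.05 there were 5 members, or 6.25%. Among all genes 17.0% were called in either direction, 7.95% were called lower, and 33.7% had an unadjusted p under 0.05. Levels are log2 signals relative to each array's 75th percentile, and differences are given as sEV minus Control with the standard error of the fit, 3 livers per group.

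The differences were also small in size. The median log2 fold change was 0.01 over the 80 members and 0.03 over all genes tested, and the median of its absolute value was 0.06 for the members and 0.21 for all genes. Positive differences numbered 43 and negative ones 37. For 78 of the 80 members, or 97.5%, the 95% interval of the difference lay within 1.5-fold in both directions, as it did for 55.5% of all genes. The 2 members whose interval reached beyond 1.5-fold were Cox6b2 and Ndufa4l2. Leaving out the 4 measured alternative isoforms and the 3 names that are not subunits, 73 subunits remained. By the brightest probe of each gene, these 73 lay between -0.24 and 0.22, and all 73 intervals lay within 1.5-fold. The sign of the members' median depended on scaling and background correction. It was -0.06 with median scaling, -0.02 with normexp background correction and -0.09 with quantile normalization. The median of all genes tested moved as well, to -0.05, 0.04 and -0.01 in that order.

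**Figure D1:**
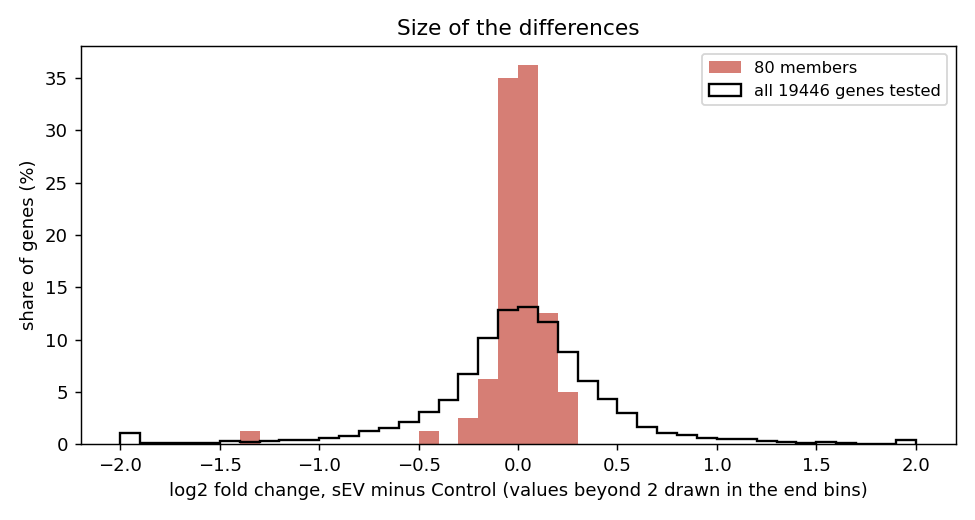
Share of genes (%) in bins of log2 fold change, sEV minus Control, for the 80 members (filled) and all 19446 genes tested (outline). The members form a narrow peak around 0, with Cox6b2 at -1.35 and Ndufa4l2 at -0.48 set off to the left.

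The 3 sEV livers and the 3 Control livers did not overlap for 10 members, or 12.5%, against 40.9% of all genes. The sEV livers were all above the Control livers for 6 members, among them Ndufs7, Ndufa3, Sdhc, Atp5d and Atp5sl, and below them for Cox6b2, Ndufa4l2, Atp5g2 and Ndufa9. Of the 10, Cox6b2 alone passed the test. An exact permutation test of 3 against 3 cannot go below p = 0.1.

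Cox6b2 was the member with the largest difference. It encodes an isoform of cytochrome c oxidase subunit 6B that is best known from testis, and its partner Cox6b1 is the broadly expressed isoform. Subunit 6B sits on the intermembrane side of complex IV, where the monomers of the dimer meet. The first 30 bases of the array probes for the pair are shown because the call on Cox6b2 rests on 1 probe. By the array's annotation on mm9, the Cox6b2 probe lies at chr7:4703488-4703547 on the minus strand.
Cox6b2: ggaactttcccgggcaaaatatgaccttgc
Cox6b1: aggagtcaggatggctgaagacatcaagac

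The Cox6b2 level was -1.18, -1.04 and -1.09 in sEV livers, against 0.45, 0.07 and 0.23 in Control livers. The sEV livers lay close to each other and far below every Control liver. The log2 fold change was -1.35 ± 0.12 with an adjusted p of 0.0020 (limma), so that sEV livers held 0.392 of the Control level. Cox6b1 read 4.45, 4.53 and 4.42 in sEV livers, against 4.45, 4.60 and 4.44 in Control livers, and its difference was -0.02 ± 0.09. The Cox6b1 groups overlapped and no change in it was detected. Cox6b2 was called lower under all 20 alternative settings, with a log2 fold change between -1.57 without scaling between arrays and -1.02 with normexp background correction. In 2 of these settings, the slide row as a block and slide row 1 alone, the difference rests on sEV 1 against the 3 Control livers, since sEV 2 and sEV 3 stood by themselves in the other row. With the block it was -1.43 (adjusted p 0.021), in a fit that called 3.68% of all genes and in which the lone liver is assumed to vary like the others.

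Markers of other cells moved in the same livers, where 7.95% of all genes tested were called lower. All 9 of 9 markers of dividing cells, among them Mki67 and Top2a, were called lower, with a median log2 fold change of -4.14. Their summed level, in units of the array's 75th percentile, was 2.65 to 3.66 in sEV livers and 43.7 to 54.6 in Control livers, and Ccnb1 and Aurkb were not well above background on the 3 sEV arrays. Of the stellate cell markers 4 of 8 were called lower (summed level 79.6 to 111 in sEV and 109 to 157 in Control livers), and of the erythroid markers 4 of 9 measured (summed level 336 to 1139 in sEV and 1086 to 1206 in Control livers). The part of these cells in the Cox6b2 difference was not tested.

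Hepatocyte markers, which check the tissue, were all measured. Of the 9, 5 were called higher, and their summed level was 4447 to 4797 in sEV livers and 3585 to 3779 in Control livers. Among Kupffer cell and macrophage markers 5 of 10 were called higher (summed level 199 to 220 in sEV and 140 to 186 in Control livers), and among neutrophil markers 6 of 10 (219 to 238 in sEV and 152 to 186 in Control livers). Endothelial markers gave 0 calls among 7. In either direction 17.0% of all genes tested were called. The share of the members' RNA that came from each cell type was not tested.

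The remaining alternative isoforms did not pass the test. Ndufa4l2, a hypoxia-inducible relative of the complex IV subunit Ndufa4, was at -0.88, -0.43 and -0.66 in sEV livers, against 0.06, -0.42 and -0.16 in Control livers. Its groups were separate by a narrow margin, and the difference of -0.48 ± 0.17 had an adjusted p of 0.096. It was called only without scaling between arrays. Ndufa4 itself was at 6.69, 6.73 and 6.59 in sEV livers, against 6.58, 6.88 and 6.71 in Control livers, with overlapping groups and a difference of -0.05 ± 0.10.

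Cox7a1, the heart and muscle isoform of subunit 7A, read 1.93, 2.05 and 1.63 in sEV livers, against 1.60, 1.74 and 1.53 in Control livers. The groups overlapped, and the difference was 0.25 ± 0.13 with an adjusted p of 0.24. Its broadly expressed partner Cox7a2 read 7.25, 7.30 and 7.24 in sEV livers, against 7.21, 7.43 and 7.25 in Control livers. Cox4i2, the isoform of subunit 4 known from lung and hypoxic cells, read -0.44, -0.32 and -0.37 in sEV livers, against -0.52, -0.52 and -0.36 in Control livers. Cox4i1, the common isoform and the largest nuclear subunit of the complex, read 8.32, 8.41 and 8.29 in sEV livers, against 8.11, 8.39 and 8.27 in Control livers. Neither the Cox7a2 nor the Cox4 groups were apart, with differences of -0.04 ± 0.09 for Cox7a2, 0.09 ± 0.09 for Cox4i2 and 0.09 ± 0.10 for Cox4i1.

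Cox6a2 and Cox8b, also isoforms of skeletal muscle and heart, were near background. Cox6a2 was well above background on 1 array, a Control array, and Cox8b on 0. Of 11 skeletal muscle markers 3 were measured, and Acta1 and Ckm were not. Cox6a1, the liver isoform of subunit 6A, read 9.62, 9.82 and 9.68 in sEV livers, against 9.53, 9.77 and 9.62 in Control livers. Cox8a, the liver isoform of subunit 8, read 8.53, 8.69 and 8.57 in sEV livers, against 8.34, 8.59 and 8.24 in Control livers. Both overlapped between the groups. The difference was 0.06 ± 0.10 for Cox6a1 and 0.21 ± 0.12 for Cox8a (adjusted p 0.26 for Cox8a).

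**Figure D2:**
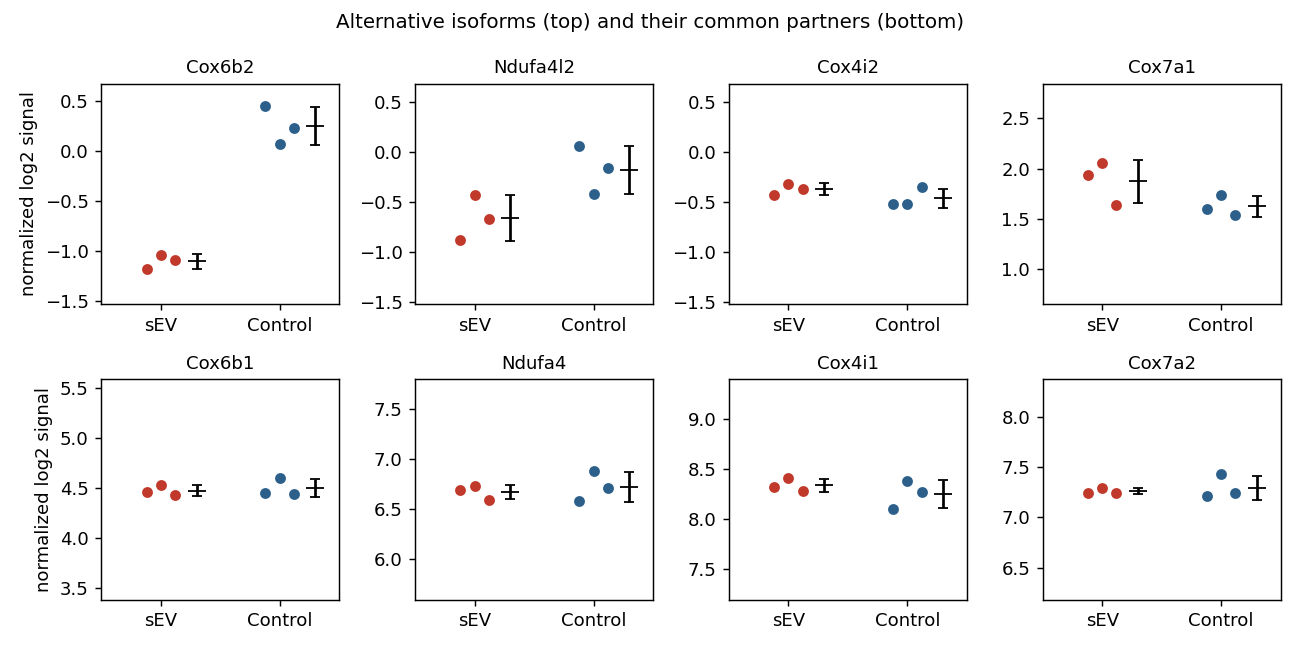
Normalized log2 signal of 4 alternative isoforms (top) and their common partners (bottom) in sEV and Control livers; dots are livers, the bar beside them the mean ± SD, n = 3 per group. Every panel spans 2.2 log2 units and has its own level, which is not comparable between probes; for Cox6b2 the sEV livers (-1.18 to -1.04) lie well below the Control livers (0.07 to 0.45).

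Complex IV as a whole had 15 of 19 names measured, and their median difference was 0.04. Apart from the alternative isoforms, its members lay between -0.09 for Cox6c and 0.21 for Cox8a. Cox5a, Cox7b and Cox7c, which surround the mitochondrially encoded catalytic core, differed by 0.06, 0.04 and -0.02, and Cox7a2l differed by 0.09. The median of complex IV was -0.12 with quantile normalization.

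Complex I, which oxidises NADH, was measured for all 35 of its names. Of these 0 were called in either direction, 20 differences were positive and 15 negative, and the median was 0.02, with a range of -0.21 to 0.21. The 7 nuclear core subunits, which carry the flavin and the iron-sulfur clusters, had a median of 0.05, and the 28 accessory subunits, which surround and stabilise the core, had a median of 0.01.

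Among the core subunits, Ndufs7, which helps form the ubiquinone-binding site, had the highest difference. It read 6.70, 6.69 and 6.70 in sEV livers, against 6.38, 6.57 and 6.50 in Control livers, and differed by 0.21 ± 0.08 (adjusted p 0.13). Every sEV liver was above every Control liver, and the difference did not pass the test.

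The subunits that take electrons from NADH overlapped between groups. Ndufv1, which binds NADH and flavin, read 7.09, 7.06 and 7.11 in sEV livers, against 6.98, 7.07 and 7.05 in Control livers. Its neighbour Ndufv2 read 5.95, 6.03 and 5.96 in sEV livers, against 5.71, 6.05 and 5.91 in Control livers. Ndufs1, which holds several iron-sulfur clusters, read 6.04, 5.91 and 6.001 in sEV livers, against 5.88, 5.97 and 5.97 in Control livers. The differences were 0.05, 0.09 and 0.05 in that order, and the lowest adjusted p among them was 0.58. Ndufs3, which links the NADH module to the quinone module, read 6.84, 6.96 and 6.83 in sEV livers, against 6.79, 6.98 and 6.89 in Control livers. Ndufs8, which carries clusters on the way to the quinone, read 6.54, 6.53 and 6.55 in sEV livers, against 6.52, 6.65 and 6.62 in Control livers. These groups overlapped as well, with differences of -0.01 and -0.06.

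Of the accessory subunits, Ndufa9 had the lowest difference. It lies where the matrix arm meets the membrane arm and read 5.11, 5.19 and 5.10 in sEV livers, against 5.25, 5.46 and 5.32 in Control livers. All sEV livers were below all Control livers, and the difference was -0.21 ± 0.09 with an adjusted p of 0.15. Ndufa3, a small membrane-arm subunit, read 7.38, 7.45 and 7.43 in sEV livers, against 7.10, 7.37 and 7.25 in Control livers. Here the sEV livers were all above the Control livers, by a narrow margin, and the difference was 0.18 ± 0.10 with an adjusted p of 0.25. The other 26 accessory subunits overlapped between groups.

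Complex II, which is both succinate dehydrogenase of the citric acid cycle and an entry point for electrons, had 4 of 4 subunits measured, with 0 calls and a median of 0.11. The flavoprotein Sdha read 5.996, 5.88 and 5.88 in sEV livers, against 5.85, 6.03 and 6.02 in Control livers. The iron-sulfur subunit Sdhb read 7.76, 7.78 and 7.68 in sEV livers, against 7.52, 7.80 and 7.63 in Control livers. Both overlapped between groups. The membrane anchor Sdhc read 5.86, 5.79 and 5.73 in sEV livers, against 5.50, 5.67 and 5.63 in Control livers, with sEV livers all higher and a difference of 0.19 ± 0.09 (adjusted p 0.18). The other anchor, Sdhd, read 6.79, 6.81 and 6.70 in sEV livers, against 6.60, 6.76 and 6.58 in Control livers, with overlapping groups. The differences of Sdha, Sdhb and Sdhd were -0.05, 0.09 and 0.12. The complex II median depended on scaling, at 0.03 with median scaling and -0.02 with quantile normalization. The median of all genes tested was -0.05 and -0.01 in these settings.

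Complex III, which passes electrons from ubiquinol to cytochrome c, had 8 of 8 names measured, 0 calls, a median of -0.01 and 0 members with separate groups. Uqcr10, a small subunit of the complex, read 8.46, 8.57 and 8.42 in sEV livers, against 8.25, 8.50 and 8.26 in Control livers, and had the highest difference, 0.14 ± 0.10. Uqcrb, a ubiquinone-binding subunit, read 6.84, 7.04 and 6.85 in sEV livers, against 6.86, 7.22 and 6.98 in Control livers, and had the lowest, -0.11 ± 0.12. Both genes overlapped between the groups. The Rieske iron-sulfur protein Uqcrfs1, the core proteins Uqcrc1 and Uqcrc2 and the hinge protein Uqcrh differed by 0.02, 0.08, -0.04 and 0.10. The small subunits Uqcrq and Uqcr11 differed by -0.05 and -0.07.

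ATP synthase had 15 of 15 names measured, 0 calls and a median of -0.01, with a range of -0.24 to 0.22. In its catalytic head, the alpha subunit Atp5a1 read 8.45, 8.40 and 8.36 in sEV livers, against 8.20, 8.41 and 8.21 in Control livers. The beta subunit Atp5b, which holds the catalytic sites, read 8.51, 8.59 and 8.54 in sEV livers, against 8.38, 8.51 and 8.47 in Control livers. The gamma subunit Atp5c1, the rotating shaft, read 7.65, 7.63 and 7.51 in sEV livers, against 7.55, 7.83 and 7.60 in Control livers. All of these overlapped between groups, with differences of 0.13, 0.09 and -0.06.

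The delta and epsilon subunits join the shaft to the membrane ring. Atp5d read 6.46, 6.49 and 6.48 in sEV livers, against 6.18, 6.36 and 6.24 in Control livers, with sEV livers all higher and a difference of 0.22 ± 0.08 (adjusted p 0.12). Atp5e read 8.12, 8.17 and 8.04 in sEV livers, against 7.87, 8.17 and 7.90 in Control livers, with overlapping groups and a difference of 0.13 ± 0.11. The median over the 5 head and shaft genes was 0.13.

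The c subunit of the rotating ring is encoded by 3 genes, Atp5g1, Atp5g2 and Atp5g3, whose mature proteins are identical. Atp5g2 had the lowest difference of the enzyme and read 7.01, 6.98 and 6.87 in sEV livers, against 7.09, 7.31 and 7.17 in Control livers. Every sEV liver was below every Control liver, and the difference was -0.24 ± 0.09 with an adjusted p of 0.13. It was called lower with normexp background correction (-0.28), quantile normalization (-0.33), no scaling (-0.46) and the deposited value table (-0.34), so that this call depended on scaling and background correction. Atp5g3 read 7.89, 8.07 and 7.85 in sEV livers, against 8.02, 8.25 and 8.03 in Control livers, and Atp5g1 read 7.90, 7.97 and 7.92 in sEV livers, against 7.78, 7.99 and 7.94 in Control livers. Both overlapped between groups, with differences of -0.16 ± 0.11 for Atp5g3 and 0.02 ± 0.09 for Atp5g1.

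The stator subunits Atp5f1 (current symbol Atp5pb), Atp5h, Atp5j and Atp5o, which hold the head in place, differed by -0.02, -0.06, -0.06 and -0.0031. The membrane subunits Atp5k, Atp5l and Atp5j2 differed by -0.13, 0.02 and -0.01. Every one of these 7 overlapped between groups. The name rule also took 3 genes that are not subunits: Atp5s and Atp5sl, now Dmac2l and Dmac2, and the pseudogene Atp5c1-ps. Their differences were -0.01, 0.18 and 0.0028, and none passed the test.

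**Figure D3:**
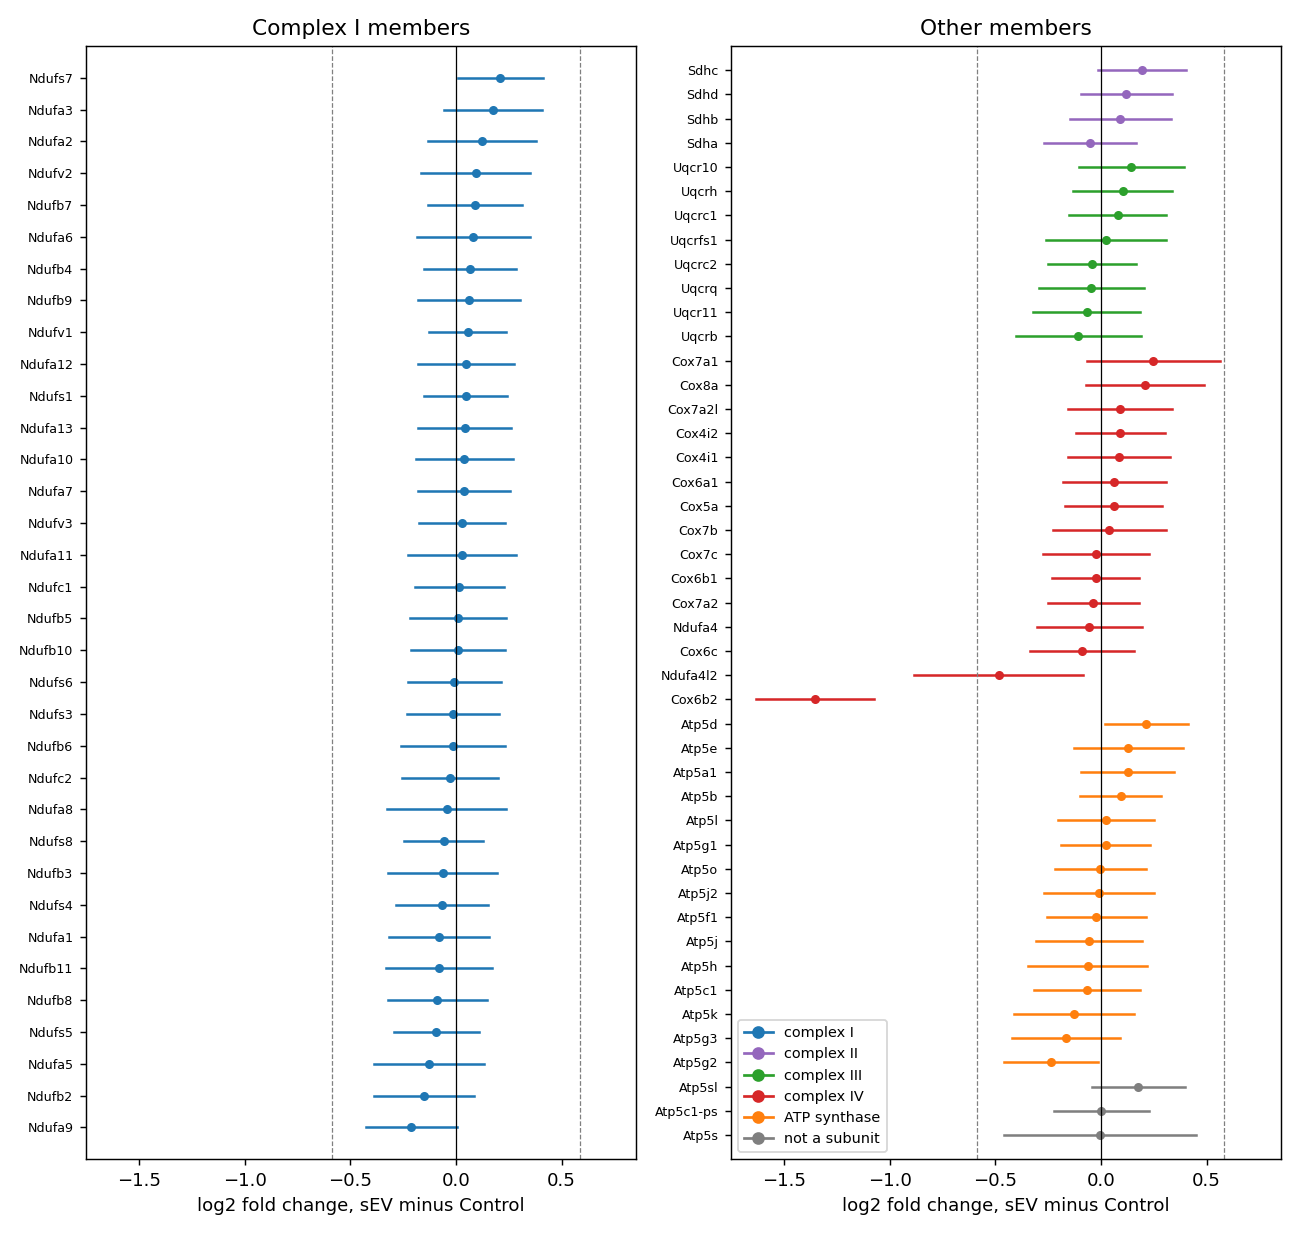
Log2 fold change, sEV minus Control, with its 95% interval (limma, n = 3 livers per group) for complex I members (left, not all shown) and the other measured members (right), coloured by complex. Dashed lines mark 1.5-fold in either direction; Cox6b2, at -1.35, is the only member with its interval wholly outside them.

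Livers of the same group differed across most members at once. The median over the 80 members was 6.91, 6.97 and 6.87 on the sEV arrays, against 6.80, 7.06 and 6.94 on the Control arrays. Control 2 was the highest Control liver for 74 of the 80 members, or 92.5%, and Control 1 the lowest for 68, or 85.0%. Over all genes tested these shares were 41.8% and 47.0%. Among the 2179 genes with a mean normalized log2 signal of at least 5, which include 70 of the members, they were 69.7% and 76.9%. sEV 2 was the highest sEV liver for 57 members, or 71.2%.

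When the arrays were scaled to the median of the members, an alternative chosen after seeing this pattern, Cox6b2 was again the only member called (-1.33, adjusted p 0.0084). Control 1 and Control 2 moved apart in bright genes generally, and whether this came from the livers or from the arrays was not tested. Bright genes were not without calls between the groups: 393 of those 2179 genes, or 18.0%, were called, with a median absolute log2 fold change of 0.15.

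**Figure D4:**
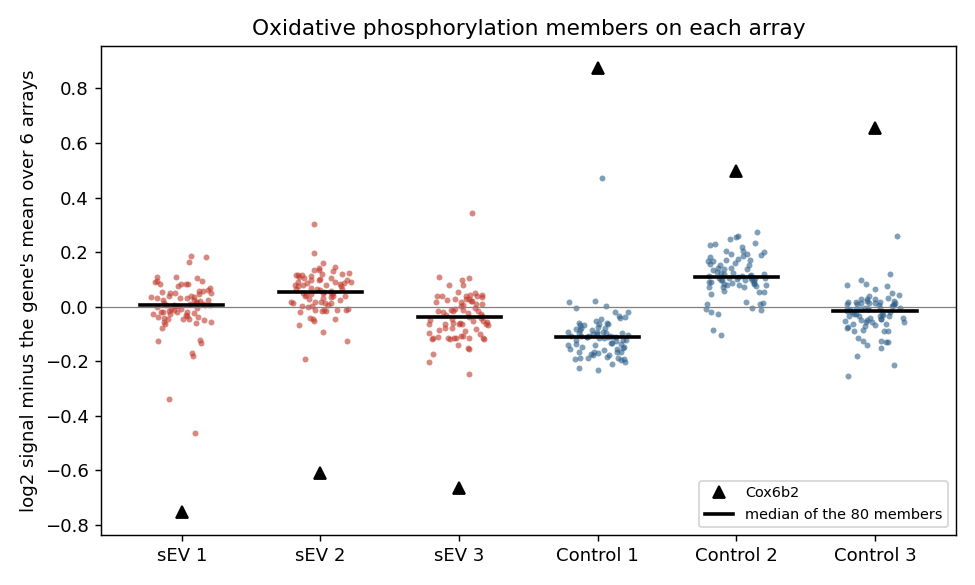
Deviation of each member from its own mean over the 6 arrays (log2), by array; dots are members, black lines the median of the 80 members and triangles Cox6b2. The dots of Control 1 sit mostly below 0 and those of Control 2 mostly above, while Cox6b2 is low on all sEV arrays and high on all Control arrays.

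The array design often carries several probes per member, which were compared with each other. Of the 129 member probes 118 passed the filter, and a fit over all probes called 1 of them, the Cox6b2 probe. For the 28 members with more than 1 passing probe, the probes' log2 fold changes spread by a median of 0.08 and by at most 0.40, in Ndufa3. Other probes of Ndufa3, Ndufv3 and Sdha reached 0.57, 0.36 and 0.32, above the range of the brightest probes. In 9 of the 28 the probes disagreed in sign. These include Atp5g1, Atp5g3, Ndufs1, Sdha and Uqcrb, whose levels above are those of the brightest probe. Probe differences ran from -0.13 to 0.02, -0.16 to 0.16, -0.22 to 0.05, -0.05 to 0.32 and -0.14 to 0.03 in that order. The probe for Ndufb11 shares a run of 58 bases with the probe of another name, Gm6444, so that its value may belong to both.

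The members were also set against their promoters. RefSeq promoters (GRCm38.p6, 250 bases before to 50 after the start) were given for 66 of the members. The NRF1 motif, whose letters are the capitals in the Atp5g2 promoter, was searched on both strands like the others and was found in 5 of the 66 (7.58%) and in 1.07% of the 27025 genes of the table. The GABP motif CCGGAAGT was found in 5 (7.58%) and in 4.31% of genes, the YY1 motif AAGATGGC in 11 (16.7%) and in 3.19% of genes, and the estrogen related receptor motif TNAAGGTCA in 3 (4.55%) and in 1.43% of genes. At least 1 of these motifs was found in 24 members (36.4%) and in 9.59% of genes. The 100 bases before the start, from RefSeq, are shown for Cox6b2, the member that was called, and for 1 member per motif, with the motif in capitals; the motifs were not found in the 300 bases of Cox6b2. They lie on the minus strand at chr7:4753095-4753194 (Cox6b2), chr15:102671048-102671147 (Atp5g2, NRF1), chr10:80406822-80406921 (Uqcr11, GABP), chr16:84834977-84835076 (Atp5j, YY1) and chr16:37654369-37654468 (Ndufb4, estrogen related receptor).
Cox6b2: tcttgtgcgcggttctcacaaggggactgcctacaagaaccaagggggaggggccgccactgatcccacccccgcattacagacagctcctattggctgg
Atp5g2: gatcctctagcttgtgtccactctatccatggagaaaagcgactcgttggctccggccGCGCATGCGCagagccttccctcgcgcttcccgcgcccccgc
Uqcr11: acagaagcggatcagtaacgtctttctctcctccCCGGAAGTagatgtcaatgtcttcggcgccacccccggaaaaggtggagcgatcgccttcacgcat
Atp5j: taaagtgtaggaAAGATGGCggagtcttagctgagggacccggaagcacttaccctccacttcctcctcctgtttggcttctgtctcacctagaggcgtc
Ndufb4: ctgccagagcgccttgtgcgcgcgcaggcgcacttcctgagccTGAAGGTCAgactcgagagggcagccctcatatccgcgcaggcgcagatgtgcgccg

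The NRF1 letters read the same on both strands. Atp5j has 2 promoters here, and the one not printed, at chr16:84835626-84835725, holds none of the motifs. The 4 members with a printed motif differed by -0.24 (Atp5g2), -0.07 (Uqcr11), -0.06 (Atp5j) and 0.07 (Ndufb4), and none was called.

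Subunits encoded in mitochondrial DNA were measured for 11 of 13 genes. Among them 1, ND1, a core membrane subunit of complex I, was called higher, 10 of the 11 differences were positive and the median was 0.18. Over all genes tested 17.0% were called in either direction, and 10423 of 19446 differences were positive. How the median of the 11 depended on scaling was not tested. ND1 read 5.81, 5.997 and 6.24 in sEV livers, against 5.52, 5.23 and 5.49 in Control livers, and the difference was 0.60 ± 0.14 with an adjusted p of 0.035. The sEV livers were all above the Control livers. The call was kept in 7 of 20 alternative settings, and it was lost on leaving out sEV 2, sEV 3 or any of the Control livers (adjusted p up to 0.094). ND2, the next largest difference, was at 0.27 with an adjusted p of 0.060. Cyc1 and Cycs, the heme protein of complex III and cytochrome c itself, which are encoded in the nucleus, differed by 0.04 and -0.04 and were not called.

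The nuclear regulators of mitochondrial genes, a list of 22 of which 20 were measured, gave 2 called higher and 2 called lower, with a median of 0.06. The called genes were 20.0% of those measured, against 17.0% of all genes tested, so that the list as a whole held calls at about the share of all genes. Tfam, which packages and transcribes mitochondrial DNA, read 2.90, 2.85 and 2.86 in sEV livers, against 3.10, 3.26 and 3.18 in Control livers. Its difference was -0.31 ± 0.08 with an adjusted p of 0.048. The groups were separate, and the call was lost when any 1 of the 6 arrays was left out (adjusted p 0.074 to 0.13). Ppara, the receptor that drives fatty acid oxidation in liver, read 4.89, 4.93 and 5.17 in sEV livers, against 5.59, 5.61 and 5.54 in Control livers. Its difference was -0.58 ± 0.10 with an adjusted p of 0.016, and leaving out sEV 2, Control 1 or Control 2 raised the adjusted p to between 0.051 and 0.054.

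Esrra, the estrogen related receptor alpha, read 3.68, 3.59 and 3.50 in sEV livers, against 2.84, 3.08 and 3.23 in Control livers. Its difference was 0.54 ± 0.12 with an adjusted p of 0.032, with separate groups, and the call held without Control 3 but not without any of the other 5 arrays (adjusted p up to 0.083). Nrip1, a corepressor of such nuclear receptors, read 0.86, 0.94 and 1.06 in sEV livers, against 0.30, 0.04 and 0.38 in Control livers. Its difference was 0.71 ± 0.12 with an adjusted p of 0.014, and the call held without any 1 array. It was kept in 15 of 20 alternative settings, and it was lost without scaling between arrays (0.49, adjusted p 0.060), with the mean of its probes (0.50, adjusted p 0.058), without the filter on dim probes and in both slide row settings. The coactivators Ppargc1a and Ppargc1b differed by 0.23 ± 0.31 and -0.30 ± 0.32, and neither was called.

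Among 14 measured genes that exchange ATP, phosphate or protons, 1 was called higher and 3 lower (28.6%, against 17.0% of all genes), with a median of -0.10. Atpif1, the inhibitor of ATP synthase, read 5.42, 5.30 and 5.32 in sEV livers, against 6.02, 6.08 and 5.93 in Control livers. Its difference was -0.66 ± 0.08 with an adjusted p of 0.0065, and it was called without any 1 array as well. Slc25a4, the ADP/ATP carrier of heart and muscle, differed by -0.60 ± 0.12 (adjusted p 0.025). Ckmt1, mitochondrial creatine kinase, differed by 0.85 ± 0.19 (adjusted p 0.030). Leaving out single arrays ended the Slc25a4 call in 5 of 6 cases (each sEV array, Control 1 and Control 2, left out singly) and the Ckmt1 call in 4 of 6 (sEV 2 and each Control array, left out singly), with adjusted p up to 0.076 and 0.10. With the mean of its probes Ckmt1 was at 0.47 (adjusted p 0.31).

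**Figure D5:**
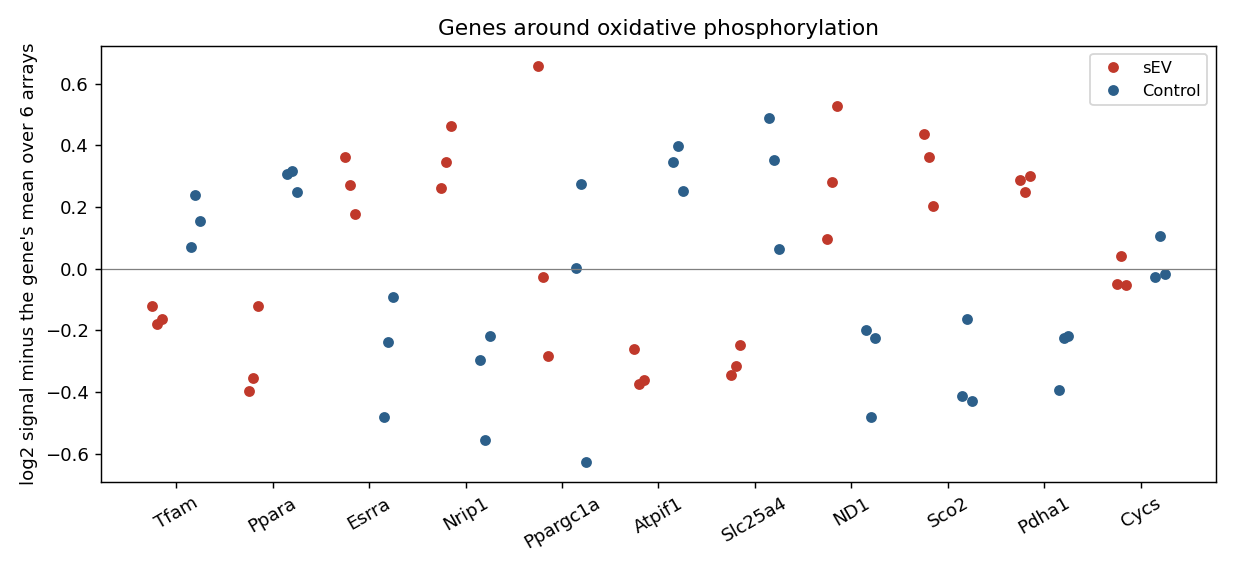
Deviation of 11 genes outside the subunit list from their own mean over the 6 arrays (log2), with sEV livers to the left of Control livers within each gene. Atpif1, Ppara and Tfam have all sEV livers below all Control livers, Pdha1, Sco2 and ND1 all above, and Cycs and Ppargc1a overlap.

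The citric acid cycle and pyruvate dehydrogenase, which supply the electrons, gave 2 genes called higher and 1 lower of 24. The called share was 12.5%, against 17.0% of all genes, and the median of the list was 0.06. Pdha1, the catalytic subunit of pyruvate dehydrogenase, read 3.74, 3.70 and 3.76 in sEV livers, against 3.06, 3.23 and 3.24 in Control livers, a difference of 0.56 ± 0.09 with an adjusted p of 0.012. The phosphatases that activate the enzyme went in opposite directions, with Pdp2 at 0.99 ± 0.20 (adjusted p 0.023) and Pdp1 at -0.73 ± 0.12 (adjusted p 0.015). Calls on Pdha1 and Pdp1 held without any 1 array, while that on Pdp2 was lost in 4 of 6 cases (without any sEV array or Control 2, adjusted p up to 0.068). With the mean of its probes Pdp2 was at 0.60 (adjusted p 0.042). Citrate synthase, Cs, differed by -0.22 ± 0.08 and was not called.

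Assembly factors of the complexes gave 2 called higher and 1 lower of 47 measured (6.38%, against 17.0% of all genes). The list had a median of 0.01. Sco2, which delivers copper to complex IV, read 6.28, 6.21 and 6.05 in sEV livers, against 5.43, 5.68 and 5.42 in Control livers, a difference of 0.67 ± 0.11 with an adjusted p of 0.015. Without Control 1 its adjusted p was 0.053. Ndufaf4, a complex I assembly factor, differed by 0.58 ± 0.14 (adjusted p 0.035) and Ttc19, a complex III factor, by -0.41 ± 0.11 (adjusted p 0.049). The Ndufaf4 call was lost in 5 of 6 cases and the Ttc19 call in 6 of 6 on leaving out single arrays (adjusted p up to 0.11 and 0.13). Ttc19 was called in 8 of 20 alternative settings, and with the mean of its probes its difference was -0.03 (adjusted p 0.85).

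The naming rule took 17 calls from the related lists, the mitochondrial ribosomal proteins included. Without the filter on dim probes, when more genes enter both the fit and the adjustment, 16 of the 17 were lost and Atpif1 was kept. With the mean of a gene's probes 7 were lost, among them Esrra and Tfam, and without scaling between arrays 5, among them Esrra, Ndufaf4 and ND1. All 17 were lost with the slide row as a block (adjusted p 0.063 to 0.26), a fit that here compares sEV 1 alone with the Control livers. The slide row cannot be told apart from sEV 2 and sEV 3, and its part in these calls was not tested.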

How the data were processed

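Each of the 6 liver RNAs was labelled with Cy3 and put on an array of its own, per the labels' protocols. The submitters' processing notes name Agilent Feature Extraction 10.7.1.1. The authors' scanner files give each spot's processed intensity, background-subtracted and without scaling between arrays, per the file headers. A deposited table of log2 values correlates with the scanner values (r at least 0.9995 across probes) and has column medians of 4.51. Its scaling and centring are not given in the sources used here.

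Processed signals were put on a log2 scale and the 75th percentile of each array was subtracted, which before logs was 268 to 281 on sEV arrays and 294 to 339 on Control arrays. Control spots and outlier-flagged spots (91 to 171 per array) were left out, and 0 other spots were saturated. Between 49.9% and 53.3% of spots on sEV arrays and 50.9% and 54.7% on Control arrays were well above background. The number of arrays limits the precision. A probe was kept if at least 3 of 6 arrays had it well above background, and the brightest stood for its gene name. The fit used lmFit and eBayes of limma 3.58.1 (R 4.3.3), with p adjusted over 19446 genes, and was tested on simulated data. With 200 genes changed per simulated run, it called 0.2% of 1.25-fold, 12.4% of 1.5-fold and 60.6% of 2-fold changes. In the data 3312 genes were called, so that the adjustment was stricter in the simulation than in the data. These shares are therefore not the shares of such changes that would be called among the members. All 80 measured members matched RefSeq gene names, 3 with a newer symbol.

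The members, lists, tests and naming rule were chosen with earlier results of these data known, so that no list has a test of its own. Each liver's value is given for members past the threshold, the highest and lowest of each complex, the complex I core, complex II, the ATP synthase head and the isoform sets. Some genes that this rule takes are counted but not reported here by name. Related lists are named by up to 4 called genes, with Ppargc1a, Ppargc1b, Esrra, Tfam, Cyc1, Cycs, Cs and Ucp2 in any case (Ucp2, an uncoupling protein, differed by -0.09 ± 0.10, with no call). Marker lists for white fat and brown fat had 2 of 6 and 2 of 7 members measured, and Adipoq, Plin1 and Ucp1 were not. In each list 1 gene was called higher, where 17.0% of all genes tested were called in either direction. The other measured gene was not called, at -0.24 for white fat and 0.23 for brown fat.

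Alternatives changed background correction, scaling, the dim-probe filter, probes per gene, variance model, array weights, value table, blocks, and left out each array. All arrays shared 1 slide and 1 scan, which therefore give no batches, so slide rows were used as a block. As sEV 2 and sEV 3 fill row 2, that block leaves sEV 1 to be compared with the Control livers. The highest correlation between arrays, across genes, was 0.995. Python 3.11.15 with matplotlib 3.10.9 drew the figures.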

Additional observations from a re-analysis of the deposited data

How the results depend on the processing

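Cox6b2 was called lower under all 20 alternatives, and no member was called higher under any of them except without the filter on dim probes, where 1 was, Cox7b2 (log2 fold change 1.61, adjusted p 0.042), which was at background on every array. Members called lower numbered 2 with normexp, quantile normalization or the deposited value table, the second being Atp5g2, and 18 without scaling between arrays, which shifted the median of all genes by -0.22. Leaving out the dim-probe filter shifted it by 0.17. All genes called numbered 810 without that filter, 715 with the slide row as a block, 594 within slide row 1 (both set sEV 1 alone against the Control livers), and 1348 to 2767 with 1 array left out (1348 without Control 1, 1432 without Control 2, 1510 without sEV 3, 1602 without sEV 2 and 1683 without Control 3), against 3312. The member median was -0.088 with quantile normalization, -0.21 without scaling and -0.088 with the value table, and lay between -0.041 and 0.064 with 1 array left out. In the same order the 3 scalings gave -0.075, -0.20 and -0.076 for complex I, -0.021, -0.11 and -0.021 for complex II (0.029 with median scaling), -0.12, -0.18 and -0.12 for complex IV, and -0.15, -0.23 and -0.15 for ATP synthase, while complex III was at -0.23 without scaling. With 1 array left out the medians lay between -0.035 and 0.064 for complex I, 0.062 and 0.17 for complex II, -0.074 and 0.070 for complex III, -0.029 and 0.075 for complex IV, and -0.094 and 0.058 for ATP synthase. The cause was not tested. Deviations of samples that share a replicate number correlated at 0.018, 0.16 and 0.021, not over 0.1 in each pair, so the numbers were not taken as a pairing; with the replicate number as a block 2210 genes were called, Cox6b2 stayed the 1 member called lower (-1.35), and the member median was 0.014. With 3 livers per group, differences inside the 95% intervals cannot be told from none, and a p over the threshold does not show that levels were equal.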

Other observations

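Mitochondrial ribosomal proteins, which translate the subunits encoded in mitochondrial DNA, were measured for all 77 names of the array. Of these 0 were called higher and 2 lower (2.6%, against 17.0% of all genes), 57 differences were negative, and the median was -0.07. Mrpl1, a protein of the large subunit, read 2.78, 2.82 and 2.70 in sEV livers, against 3.08, 3.34 and 3.17 in Control livers, a difference of -0.43 ± 0.10 with an adjusted p of 0.032 (limma). Mrpl35, also of the large subunit, read -2.08, -1.85 and -1.92 in sEV livers, against -1.69, -1.45 and -1.38 in Control livers, a difference of -0.45 ± 0.12 with an adjusted p of 0.047. In both genes all sEV livers were below all Control livers, and both calls were lost when any 1 of the 6 arrays was left out (adjusted p up to 0.094 for Mrpl1 and 0.14 for Mrpl35). The sEV and Control livers did not overlap for 32.5% of the list, against 40.9% of all genes.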
